A study of Mus musculus with 20 samples.

Results

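Wnt pathway genes were examined in RNA-seq of mouse skin across normal skin (NS), actinic keratosis (AK) and cutaneous squamous cell carcinoma (cSCC). The genes were 10 of the 22090 gene symbols in the count table, chosen by name with earlier results of these data known. They were the ligands Wnt3, Wnt4, Wnt5a, Wnt7b and Wnt10a and the secreted modulators Sfrp1 and Dkk3. The others were the transducer Ctnnb1 (β-catenin), the transcription factor Lef1 and the target gene Axin2. All 10 were found in the table. In each comparison 9 of the 10 passed the filter on low counts, and Lef1 did not. Wnt ligands are secreted proteins that bind Frizzled receptors with the co-receptors Lrp5 or Lrp6. In the canonical branch this binding stops the destruction of β-catenin, which then enters the nucleus and turns on target genes together with factors of the Lef and Tcf family. In skin the pathway is best known for hair follicle formation and regrowth and for the maintenance of basal keratinocytes.

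The tissues came from 8 female SKH-1 mice, a hairless strain, which were 7 months old when provided and older when the tissues were taken, after months of irradiation in the irradiated group. The study's methods put 4 mice in a group without ultraviolet radiation, which gave 4 NS. The other 4 mice were irradiated, and each gave 1 NS, 2 AK and 1 cSCC. The samples were 8 NS, 8 AK and 4 cSCC, named here by the replicate numbers in their labels. Neither the mouse behind each tissue nor the irradiated NS can be read from the labels, so NS formed 1 group, and irradiation and lesion cannot be told apart in part of it. All AK and cSCC were irradiated and came from the same 4 mice, while the tests below treat samples as independent. The 2 AK of each mouse may make p-values too small. Unused pairing of tissues from the same mouse in different groups may instead make p-values too large. The strain has a defective hair cycle, which bears on hair follicle genes in every group, and the study's pathology graded the AK lesions as papillomas.

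Total counts per sample ranged from 775750 to 14055206. Levels are CPM, each count over the library's effective total, with the scaling factors of edgeR's TMM method over the 20 samples, and 3 counts, taken as the detection limit, corresponded to 0.225 to 3.78 CPM. This limit covers counting error only. Summed levels of 7 basal keratinocyte markers, all with counts, were 5312 to 16330 CPM in NS, 9323 to 14360 CPM in AK and 3866 to 18490 CPM in cSCC, so keratinocyte RNA was present in every tissue. Among the cSCC libraries 3 stood apart. In cSCC replicate 18, 46.8% of counts were haemoglobin (95% Wilson interval 46.8 to 46.9). The next highest haemoglobin share was 14.3%, in AK replicate 14. In cSCC replicate 20, the smallest library, 4.06% of counts were from 6 lung epithelium genes (interval 4.01 to 4.10), and in cSCC replicate 21, 4.66% were from 6 heart muscle genes (interval 4.65 to 4.68). No other library exceeded 0.00473% for the lung genes or 0.0169% for the heart genes.

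Few of the genes passed the test in any comparison. Groups were compared in pairs with edgeR's quasi-likelihood test on the counts, with Benjamini-Hochberg adjustment over all genes tested, and a gene was called at an adjusted p under 0.05 with a fold change above 1.5 or below 0.67. For AK vs. NS, 0 of the 9 tested were called, beside 2.26% of 11677 genes called higher and 2.38% called lower. In that comparison 2 of the 9, Wnt7b and Axin2, had an unadjusted p under 0.05, as did 2875 of all 11677 genes tested. DESeq2 called both lower, and it called 616 of the 11677 genes lower. For cSCC vs. NS, Wnt7b and Sfrp1 were lower and 0 were higher, beside backgrounds of 7.65% lower and 11.7% higher among 12097 genes. For cSCC vs. AK, Sfrp1 was lower and 0 were higher, beside 8.34% lower and 16% higher among 12032 genes. No gene of the 9 had groups without overlap in AK vs. NS or cSCC vs. NS, where 0.522% and 8.43% of genes did, and 1 did in cSCC vs. AK, Sfrp1, where 10.2% of genes did. With 9 genes tested, 2 and 1 calls are not far from these background shares. The median log2 fold change of the 9 was -0.05 when AK was compared with NS, -0.09 when cSCC was compared with NS and -0.18 when cSCC was compared with AK, and that of all genes tested was -0.04, 0.15 and 0.17. The comparisons share samples, so they are not independent of each other.

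**Figure D1:**
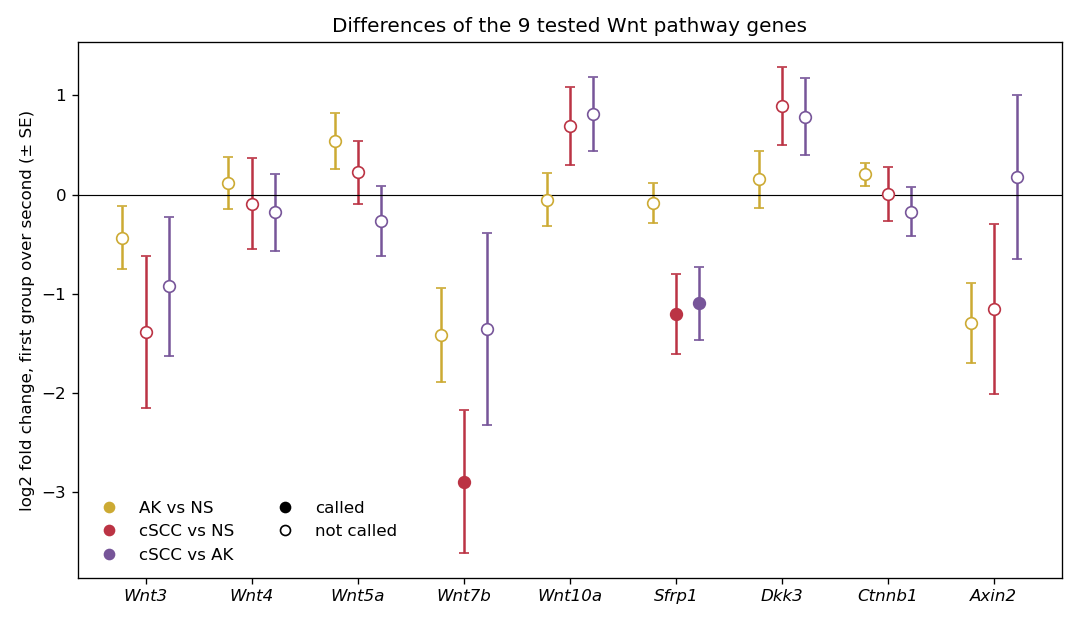
log2 fold change (vertical axis, ± SE) of the 9 tested Wnt pathway genes in the 3 comparisons (colours), with filled points for called genes. The filled points are Wnt7b at -2.90 and Sfrp1 at -1.21 for cSCC vs. NS, and Sfrp1 at -1.10 for cSCC vs. AK.

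Levels per length placed the genes in a similar order in NS and AK. As mean CPM per kb of merged exons, Ctnnb1 was highest in NS at 68.4 ± 9.01 (SD, n = 8), in AK at 79.8 ± 6.86 (SD, n = 8) and in cSCC at 65.7 ± 25.7 (SD, n = 4), and its range did not overlap that of the next gene in any group. In NS the next levels per kb were Sfrp1 at 15.9, Wnt3 at 12.7 and Wnt4 at 10.4, followed by Dkk3 at 5.81, Wnt10a at 5.47, Wnt5a at 2.90, Wnt7b at 2.03, Axin2 at 1.12 and Lef1 at 0.0980. Below Ctnnb1, every pair of neighbours in the NS order overlapped in range. In AK the order changed only by an exchange of Wnt3 and Wnt4, whose ranges overlapped, and the ranges of Wnt5a and Wnt7b and of Axin2 and Lef1 did not overlap. In cSCC, Sfrp1 stood lower in the order, at 6.77 CPM per kb, below Dkk3 at 10.3, Wnt4 at 9.49 and Wnt10a at 8.33, with overlapping ranges among all of these.

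**Figure D2:**
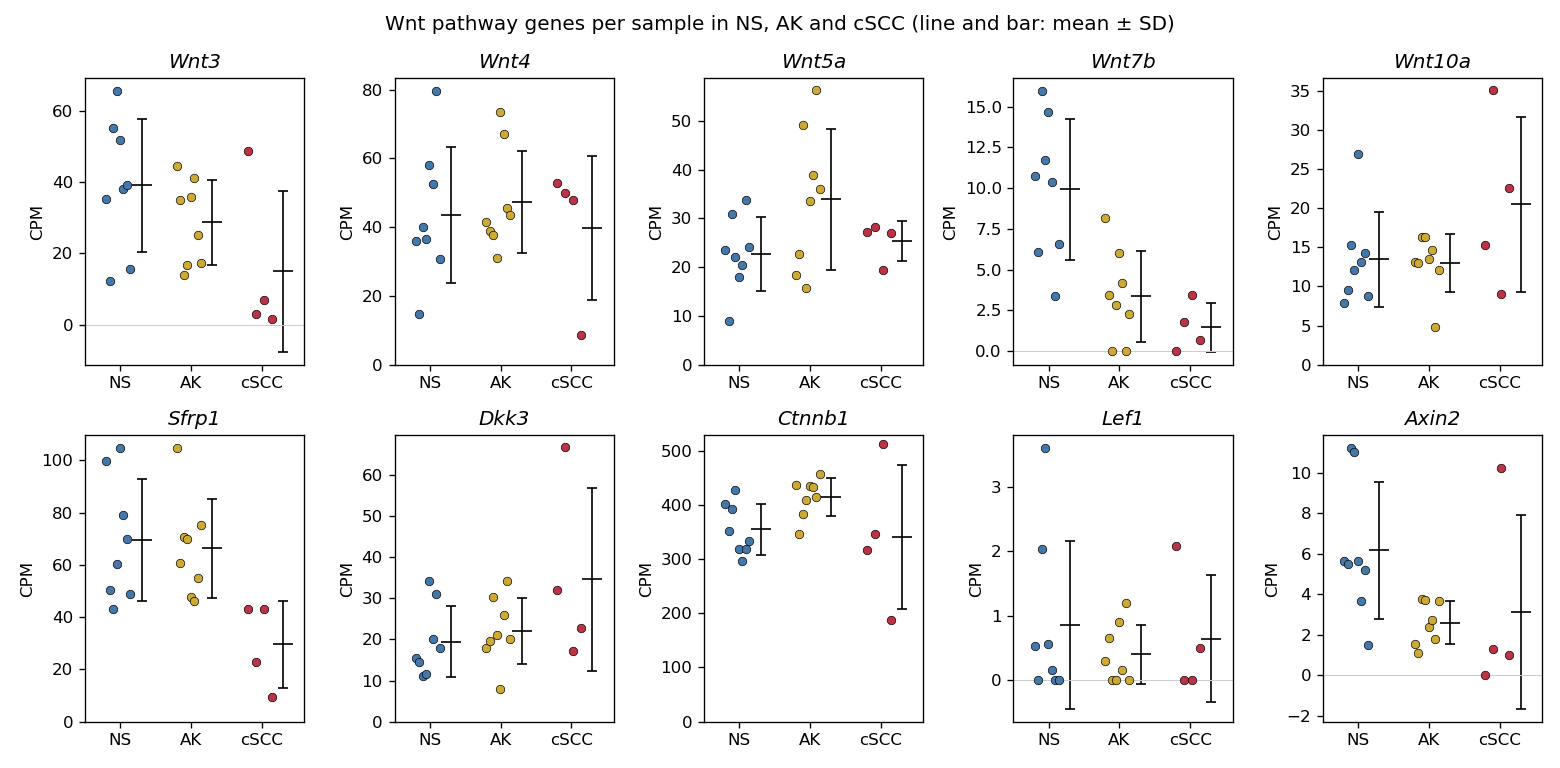
CPM per sample (points) of the 10 genes in 8 NS, 8 AK and 4 cSCC, with the group mean and SD beside them. Wnt7b lies at 3.35 to 15.9 CPM in NS and at most 3.41 CPM in cSCC, and the 4 cSCC points of Sfrp1 lie at or below 43.2 CPM. For some low genes the bar of the mean minus SD reaches below 0.

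Wnt7b, a ligand of the canonical branch known from epidermis and hair follicle, was lower in cSCC than in NS (chromosome 15, 85535437 to 85582473, minus strand of GRCm38 in GENCODE M21). In NS it was 3.35 CPM at the lowest, 10.6 CPM at the median and 15.9 CPM at the highest. In AK the corresponding values were 0, 3.14 and 8.16 CPM, with no counts in AK replicates 12 and 16. In cSCC it was 0 CPM in replicate 18, 1.76 CPM in replicate 19, 3.41 CPM in replicate 20 and 0.662 CPM in replicate 21. These cSCC levels rest on 0, 4, 3 and 4 counts, while NS samples held 11 to 65 counts. Wnt7b thus passed the filter on low counts for cSCC vs. NS through NS, and its call there held with no filter. Of the cSCC samples 3 were below every NS sample, and replicate 20, at its detection limit of 3 counts, was just above the lowest NS.

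The log2 fold change of Wnt7b for cSCC vs. NS was -2.90 ± 0.72 (SE), a 7.46-fold lower level, with an adjusted p of 0.0142 in edgeR's test. The call held without each of the 12 samples in turn, with log2 fold changes of -3.46 to -2.56, and without cSCC replicates 20 and 21 together (-3.23, adjusted p = 0.0369). It was lost with limma voom and sample quality weights (-2.56, adjusted p = 0.152). For AK vs. NS the log2 fold change was -1.42 ± 0.47 (SE) with an adjusted p of 0.0775, and 4 of 8 AK lay below every NS. Among these, AK replicate 12 had a detection limit of 3.78 CPM, above the lowest NS at 3.35 CPM. DESeq2 gave -1.46 with an adjusted p of 0.016 for that comparison, while limma voom gave -1.56 with 0.0323. Wnt7b stayed uncalled there in 6 of 9 alternatives and in 14 of 16 fits that left out 1 sample. AK and cSCC overlapped (-1.36 ± 0.97, SE, adjusted p = 0.321). A gene on the opposite strand, AU022754, overlaps Wnt7b, and the library kit does not mark strand, so reads of both cannot be told apart.

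Wnt3, a canonical ligand expressed in hair follicle epithelium, lay on chromosome 11 (103774150 to 103817957, plus strand). Its lowest, median and highest levels were 12.2, 38.6 and 65.5 CPM in NS and 13.9, 30.0 and 44.5 CPM in AK. In cSCC it was 48.6 CPM in replicate 18, 3.08 CPM in replicate 19, 6.83 CPM in replicate 20 and 1.49 CPM in replicate 21. The cSCC samples thus fell apart: 3 were below every NS and every AK sample, and replicate 18, the haemoglobin-rich library, was above every AK. The TMM factor of replicate 18 was 0.509, the lowest of the 20 samples, which raises its CPM. Its place above every AK depends on this scaling. With all 4 cSCC the log2 fold change vs. NS was -1.39 ± 0.76 (SE, adjusted p = 0.216) and vs. AK -0.93 ± 0.70 (SE, adjusted p = 0.351). Without replicate 18 these became -3.57 (adjusted p = 0.00286) and -3.14 (adjusted p = 0.00185), so leaving out 1 sample changed the call of Wnt3. With all 4 cSCC, the difference from NS passed with library size alone (-2.17, adjusted p = 0.0434) and with the unadjusted two-sample test, and limma voom gave -2.57 (adjusted p = 0.117). The levels in the 3 low samples rested on 6 to 9 counts each. For AK vs. NS the log2 fold change was -0.44 ± 0.32 (SE, adjusted p = 0.412).

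Wnt4 was not called in any comparison. This ligand is known for roles in epithelial branching and gonad development and is also made in epidermis (chromosome 4, 137277489 to 137299726, plus strand). Mean levels were 43.6 ± 19.7 CPM (SD, n = 8) in NS, 47.4 ± 14.9 CPM (SD, n = 8) in AK and 39.8 ± 20.9 CPM (SD, n = 4) in cSCC. The cSCC samples were at 52.8, 50.1 and 47.8 CPM in replicates 18, 19 and 20 and at 8.60 CPM in replicate 21, the library with heart muscle genes. Its log2 fold change was 0.12 in AK over NS, -0.09 in cSCC over NS and -0.18 in cSCC over AK, with adjusted p-values of 0.817, 0.914 and 0.768.

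Wnt5a, the ligand best known for signalling without β-catenin, was at 8.98 to 33.8 CPM in NS (median 22.7), 15.7 to 56.3 CPM in AK (median 34.8) and 19.3 to 28.1 CPM in cSCC (median 27.0). It lay on chromosome 14 (28504750 to 28527448, plus strand) and overlaps Gm2670 on the opposite strand. Of the AK samples 4 were above every NS, while the other AK lay within the NS range. The log2 fold change for AK vs. NS was 0.54 ± 0.28 (SE) and did not pass (adjusted p = 0.245). The cSCC samples lay within the ranges of both other groups, and the log2 fold changes were 0.23 vs. NS and -0.27 vs. AK (adjusted p = 0.654 and 0.609).

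Wnt10a, a ligand whose loss causes defects of hair, teeth and sweat glands, was at 7.92 to 27.0 CPM in NS (median 12.6) and 4.79 to 16.4 CPM in AK (median 13.3). In cSCC it was 15.3 CPM in replicate 18, 35.2 CPM in replicate 19, 9.10 CPM in replicate 20 and 22.7 CPM in replicate 21. Replicate 19 was above every NS, and replicates 19 and 21 were above every AK, with the other cSCC inside both ranges. The log2 fold changes were 0.69 ± 0.40 (SE) vs. NS and 0.81 ± 0.37 (SE) vs. AK, and neither passed (adjusted p = 0.235 and 0.123). Without replicate 19 they were 0.32 and 0.45 (adjusted p = 0.658 and 0.441). AK and NS differed by -0.05 ± 0.27 (SE, adjusted p = 0.928). The gene lay on chromosome 1 (74791516 to 74804179, plus strand), with no overlapping gene.

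Among the secreted modulators, Sfrp1 was lower in cSCC than in both other groups. Its protein, secreted frizzled-related protein 1, binds Wnt ligands outside the cell and is mostly described as an inhibitor (chromosome 8, 23411502 to 23449632, plus strand, no overlapping gene). NS ranged from 43.1 to 105 CPM with a median of 65.3 CPM, and AK from 46.3 to 105 CPM with the same rounded median, 65.3 CPM. The cSCC levels were 43.1 CPM in replicate 18, 22.9 CPM in replicate 19, 43.2 CPM in replicate 20 and 9.26 CPM in replicate 21. All 4 cSCC were below every AK, and 3 were below every NS. The remaining cSCC sample, replicate 20, exceeded only NS replicate 4, by less than 1 count of that library.

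For Sfrp1 the log2 fold change for cSCC vs. NS was -1.21 ± 0.40 (SE), 2.31-fold lower, with an adjusted p of 0.0498, close to the threshold. For cSCC vs. AK it was -1.10 ± 0.37 (SE), 2.14-fold lower, with an adjusted p of 0.0404. Leaving out 1 sample ended the call vs. NS in 10 of 12 cases and vs. AK in 8 of 12, with the log2 fold change between -1.49 and -0.86 in all of them. Without cSCC replicate 18 and without replicate 20 both calls held, without replicate 21, the lowest sample, both were lost (-0.90, adjusted p = 0.0937 vs. NS and -0.86, adjusted p = 0.0655 vs. AK), and so they were without replicate 19. Without cSCC replicates 20 and 21 together both were also lost (-1.06, adjusted p = 0.101 vs. NS and -0.96, adjusted p = 0.0814 vs. AK). AK vs. NS was not called (log2 fold change -0.09 ± 0.21, SE, adjusted p = 0.831).

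Other markers moved in the same tissues. The summed level of 7 markers of differentiated keratinocytes was 10750 to 31770 CPM in NS and 7223 to 21920 CPM in AK. In cSCC replicates 18 to 21 it was 10310, 1065, 1636 and 689 CPM, so every cSCC was below every NS, and replicate 18 was the highest cSCC. For 7 hair follicle markers the sums were 16.4 to 463 CPM in NS and 21.2 to 286 CPM in AK. In cSCC replicates 18 to 21 they were 82.66, 25.49, 30.72 and 3.142 CPM. Of the 7 markers 3, Krt27, Krt31 and Krt35, were at 0 in all cSCC. Zeros were not confined to cSCC: 4 of the 7 were at 0 in NS replicates 2 and 8, and 5 in AK replicates 12 and 16, against 4 or 5 in each cSCC. Sums of 6 endothelial markers were 23.1 to 89.8 CPM in NS and 29.6 to 87.5 CPM in AK. In cSCC replicates 18 to 21 they were 95.85, 97.55, 163.8 and 567.3 CPM, so every cSCC was above both other groups. The highest were replicates 20 and 21, the libraries with lung or heart genes, and the part of that RNA in these sums was not tested. Sums of 6 T cell markers were 54.8 to 202 CPM in NS, 27.0 to 153 CPM in AK and 6.29 to 39.8 CPM in cSCC, so every cSCC was below every NS. Sums of 7 fibroblast markers overlapped, at 1076 to 7782 CPM in NS, 1157 to 4629 CPM in AK and 1294 to 5461 CPM in cSCC. Those of 6 skeletal muscle markers also overlapped, at 577.5 to 7646, 24.91 to 4928 and 508.4 to 8324 CPM, highest in cSCC replicate 21. Sums of 4 adipocyte markers were 15.07 to 289.7 CPM in NS and 27.62 to 143.8 CPM in AK. In cSCC replicates 18 to 21 they were 0, 2.197, 223 and 0.6616 CPM. The part of these cell types in the levels of Wnt7b, Wnt3 and Sfrp1 was not tested. In bulk tissue, fewer cells of a type and less RNA per cell cannot be told apart.

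**Figure D3:**
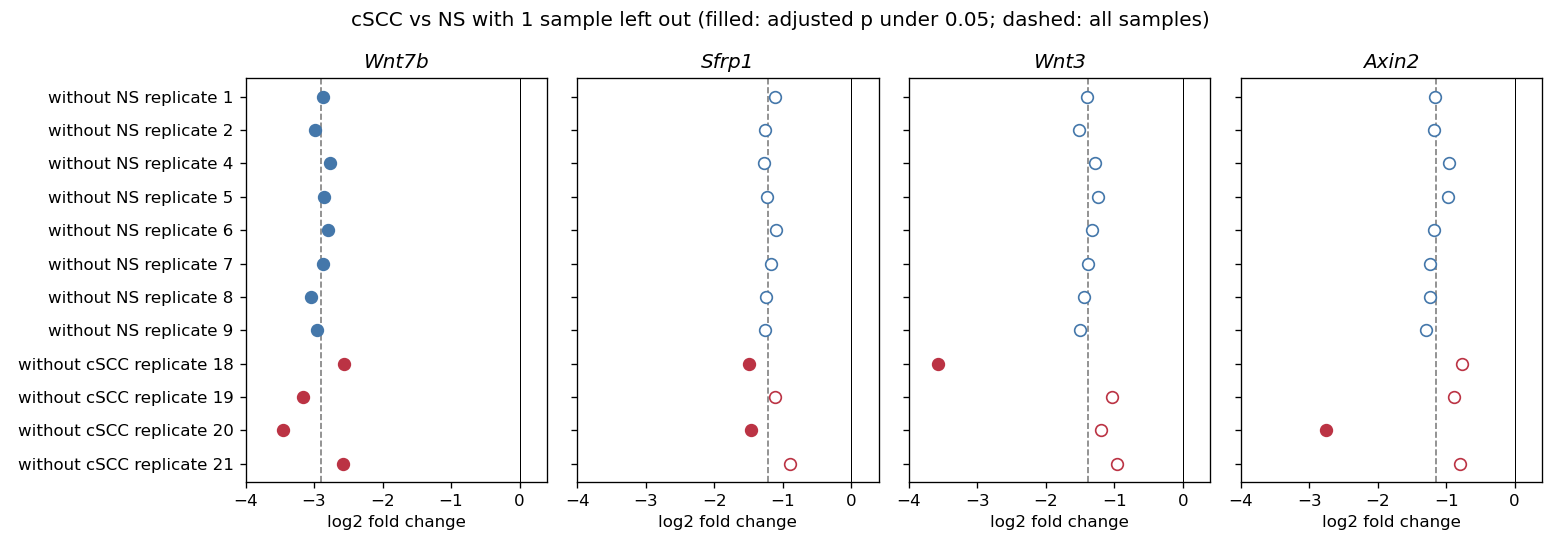
log2 fold change for cSCC vs. NS of Wnt7b, Sfrp1, Wnt3 and Axin2 (horizontal axes) with each of the 12 samples left out in turn (rows), filled where the adjusted p was under 0.05, and the value with all samples as a dashed line. Wnt7b is filled in 12 of 12 rows and Sfrp1 in 2, and Wnt3 and Axin2 are filled only without cSCC replicate 18 (-3.57) and without cSCC replicate 20 (-2.76), respectively.

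Dkk3, a secreted protein related to the Dickkopf inhibitors whose effect on Wnt signalling depends on the cell type, had higher means in cSCC that did not pass the test. It lay on chromosome 7 (112116017 to 112159057, minus strand). NS ranged from 11.2 to 34.4 CPM (median 16.7) and AK from 7.84 to 34.2 CPM (median 20.6). The cSCC samples were at 32.0 CPM in replicate 18, 66.8 CPM in replicate 19, 17.1 CPM in replicate 20 and 22.8 CPM in replicate 21. Replicate 19 alone exceeded the NS and AK ranges. The log2 fold changes were 0.89 ± 0.40 (SE) vs. NS and 0.79 ± 0.39 (SE) vs. AK, with adjusted p-values of 0.126 and 0.154. Without cSCC replicates 20 and 21 together the difference from NS was 1.39 with an adjusted p of 0.0479, and without replicate 19 it was 0.36 with an adjusted p of 0.582.

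Ctnnb1, which encodes β-catenin, the protein that carries the canonical signal and also links cadherins in cell junctions, had the smallest ratio of highest to lowest sample of the 10 genes in NS (1.44) and in AK (1.32). It was at 296 to 428 CPM in NS (mean 355 ± 46.8, SD, n = 8) and at 346 to 457 CPM in AK (mean 414 ± 35.6, SD, n = 8). The cSCC samples were at 317 CPM in replicate 18, 347 CPM in replicate 19, 512 CPM in replicate 20 and 188 CPM in replicate 21, the widest spread of the groups. Of the AK samples 4 were above every NS, and the log2 fold change of 0.21 ± 0.12 (SE) did not pass (adjusted p = 0.277). For cSCC the log2 fold changes were 0.0030 vs. NS and -0.17 vs. AK (adjusted p = 0.996 and 0.643). Signalling through β-catenin is set by the stability and place of the protein, which RNA levels do not measure. The gene lay on chromosome 9 (120929216 to 120960507, plus strand) and overlaps Ulk4 and 4930593C16Rik on the opposite strand.

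Lef1, the DNA-binding partner of β-catenin in hair matrix and follicle development, was near the detection limit. Its highest levels were 3.60 CPM in NS (16 counts in NS replicate 5), 1.20 CPM in AK and 2.08 CPM in cSCC, and 3 NS, 3 AK and 2 cSCC samples had no counts. In sum, the groups held 27, 13 and 6 counts. With no filter on low counts the log2 fold changes were -1.13 ± 1.01 (SE) in AK over NS, -0.41 ± 1.41 (SE) in cSCC over NS and 0.59 ± 1.24 (SE) in cSCC over AK, with adjusted p-values of 0.52, 0.869 and 0.764. A difference was not detectable at this depth. Lef1 lay on chromosome 3 (131110471 to 131224356, plus strand) and overlaps Gm43352 on the opposite strand.

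Axin2, a scaffold of the β-catenin destruction complex and a direct target gene that is widely used as a readout of canonical signalling, was not called in any comparison, with low levels in most lesions. It lay on chromosome 11 (108920349 to 108950783, plus strand) and overlaps Gm11670 on the opposite strand. Because it is the readout gene of the set, the 250 bases before its annotated start in RefSeq (GRCm38.p6, chr11:108920099-108920348, plus strand) are shown, in lower case since no base matched the searched motif:
Axin2: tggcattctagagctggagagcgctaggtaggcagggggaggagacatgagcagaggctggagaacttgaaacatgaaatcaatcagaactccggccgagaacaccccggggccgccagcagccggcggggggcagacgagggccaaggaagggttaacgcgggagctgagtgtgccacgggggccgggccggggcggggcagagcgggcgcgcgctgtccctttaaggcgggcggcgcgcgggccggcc
The stretch had 69.2% G and C. The letters CTTTG, the core of Lef and Tcf binding motifs, did not occur on either strand, and 48.6% of 32851 mouse promoter windows of this length held them. The longer motifs CTTTGAT and CTTTGAA, searched on both strands from 250 bases before to 50 bases after the start, occurred in 8.65% of all windows and in 0 of the 9 windows available for Wnt3, Wnt4, Axin2, Lef1 and Ctnnb1. This says only that these letters are not in these windows.

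The Axin2 levels were 1.49 CPM at the lowest, 5.57 CPM at the median and 11.2 CPM at the highest in NS, and 1.08, 2.56 and 3.78 CPM in AK. In cSCC they were 0 CPM in replicate 18, 1.32 CPM in replicate 19, 10.2 CPM in replicate 20 and 0.992 CPM in replicate 21, from 0, 3, 9 and 6 counts. Thus 6 of 8 NS were above every AK, 3 of 4 cSCC were below every NS, and replicate 20, the library with lung genes, was exceeded only by NS replicates 4 and 5. The detection limit of 3 counts was 2.08 CPM in cSCC replicate 18, above the lowest NS. In cSCC replicate 19 it was 1.32 CPM, the level of Axin2 itself. For AK vs. NS the log2 fold change was -1.30 ± 0.40 (SE), 2.45-fold lower, which missed the threshold in edgeR's test (adjusted p = 0.064). It passed in DESeq2 (-1.32, adjusted p = 0.026), with library size alone (-1.40, adjusted p = 0.0481) and without NS replicate 9 (-1.45, adjusted p = 0.0276). Axin2 stayed uncalled there in 6 of 9 alternatives and in 15 of 16 fits that left out 1 sample. For cSCC vs. NS the log2 fold change was -1.15 ± 0.86 (SE, adjusted p = 0.368), and without cSCC replicate 20 it was -2.76 (adjusted p = 0.0328). For cSCC vs. AK it was 0.18 ± 0.83 (SE, adjusted p = 0.900), and -1.41 (adjusted p = 0.200) without that sample.

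The rest of the pathway was followed in a list of 86 further Wnt genes by role, of which 48, 52 and 50 were tested in the comparisons of AK with NS, of cSCC with NS and of cSCC with AK. For AK vs. NS 2 were higher and 2 lower (4.17% each, beside 2.26% and 2.38% of all genes tested). For cSCC vs. NS 1 was higher (1.92%, beside 11.7%) and 7 were lower (13.5%, beside 7.65%). For cSCC vs. AK 2 were higher (4%, beside 16%) and 6 lower (12%, beside 8.34%). Their median log2 fold changes were -0.26, -0.35 and -0.19, below those of all genes tested given above. Ccnd1 and Ctnnbip1, each in both comparisons of cSCC, and Lgr4 for cSCC vs. AK were called in every alternative fit that was run, while each other call of the list was lost in at least 1. No test of the list against other genes was made.

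Most further ligands were too low to test, as only 1 or 2 of 14 passed the filter. Wnt16, a ligand studied mainly in bone and skin, was higher in AK, at 6.15 ± 3.83 CPM (SD, n = 8) against 1.17 ± 1.18 CPM (SD, n = 8) in NS, with a log2 fold change of 2.24 ± 0.62 (SE, adjusted p = 0.0419). The ranges were 0 to 3.51 CPM in NS and 0.898 to 11.7 CPM in AK, so the groups overlapped, and the call was lost in 11 of 16 fits that left out 1 sample. Both secretion genes, Porcn and Wls, were tested and not called in any comparison.

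Of 15 receptor genes, 2 of 11 tested were lower in cSCC than in NS (7.65% of all genes tested were) and 2 of 10 than in AK (8.34% of all genes), and 0 were higher in either. Fzd1 was at 41.6 ± 13.4 CPM (SD, n = 8) in NS, 34.4 ± 11.8 CPM (SD, n = 8) in AK and 14.2 ± 6.23 CPM (SD, n = 4) in cSCC, with log2 fold changes of -1.52 vs. NS, where no samples overlapped, and -1.21 vs. AK (adjusted p = 0.0137 and 0.0347). Fzd7 was lower vs. NS (-1.93, adjusted p = 0.0496) and Fzd6, a receptor known from hair orientation, was lower vs. AK (-0.98, adjusted p = 0.0277). Without cSCC replicates 20 and 21 together none of these 4 calls passed: Fzd1 was at -1.19 vs. NS and -0.89 vs. AK (adjusted p = 0.057 and 0.166), Fzd7 at -2.14 (adjusted p = 0.114) and Fzd6 at -0.53 (adjusted p = 0.237). With 1 sample left out, Fzd7 lost its call in 8 of 12 fits, among them those without cSCC replicate 18, 19 or 21 (-1.68, -2.16 and -1.73), and Fzd1 vs. AK and Fzd6 lost theirs in 6 and 2 of 12.

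Of the R-spondin axis, which sets how many Frizzled receptors stay at the surface, Lgr4 was lower in cSCC than in both other groups. This R-spondin receptor was at 71.9 to 240.0 CPM in NS, 83.0 to 132 CPM in AK and 55.6, 50.5, 47.8 and 36.7 CPM in cSCC replicates 18 to 21, with no overlap in either comparison. Its log2 fold changes were -1.42 ± 0.37 (SE, adjusted p = 0.0168) vs. NS and -1.06 ± 0.22 (SE, adjusted p = 0.0051) vs. AK. The call vs. AK held with each sample left out and the call vs. NS was lost without cSCC replicates 20 and 21 together (-1.29, adjusted p = 0.0969). Rnf43, a ligase that removes Frizzled receptors, had 0, 0, 0 and 5 counts in cSCC and 0 to 42 counts in NS. It thus passed the filter on low counts through NS. It was called lower vs. NS (adjusted p = 0.046), a call lost with no filter and in 9 of 12 fits that left out 1 sample. Lgr6, a marker of epidermal stem cells, was lower in AK than in NS, at 3.18 ± 2.22 CPM (SD, n = 8) against 10.2 ± 6.79 CPM (SD, n = 8), with an adjusted p of 0.0494, and this call was lost in 13 of 16 such fits.

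The secreted inhibitor Sfrp2 differed from Sfrp1 in direction. It was at 0 to 7.61 CPM in NS, 0 to 7.79 CPM in AK and 4.86, 29.0, 13.6 and 5.79 CPM in cSCC replicates 18 to 21. The log2 fold change was 2.15 ± 0.62 (SE, adjusted p = 0.0217) for cSCC vs. AK. For cSCC vs. NS it was 2.28 ± 0.80 (SE, adjusted p = 0.0585), which was not called, and the groups overlapped. Without cSCC replicate 19, the highest sample, the log2 fold change vs. AK was 1.40 with an adjusted p of 0.154. Sfrp2 was the only called gene among the 5 or 6 of 13 further secreted inhibitors tested in each comparison. For cSCC vs. AK this was 16.7% of the 6 tested, near the 16% of all genes tested that were called higher.

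In the cytoplasm, Ctnnbip1, which encodes a small protein that keeps β-catenin from binding Tcf factors, was lower in cSCC. It was at 71.0 to 430 CPM in NS, 66.5 to 379 CPM in AK and 63.2, 14.1, 17.1 and 6.45 CPM in cSCC replicates 18 to 21, so that every cSCC lay below both ranges. The log2 fold changes were -3.28 ± 0.63 (SE, adjusted p = 0.00453) vs. NS, 9.72-fold lower, and -2.83 ± 0.58 (SE, adjusted p = 0.0049) vs. AK, 7.10-fold lower, and both calls held with each sample left out. Csnk1e, casein kinase 1 epsilon, which acts on Dishevelled, was lower vs. NS in AK (-0.78 ± 0.17, SE, adjusted p = 0.019) and in cSCC (-0.997 ± 0.278, SE, adjusted p = 0.0236). The call in cSCC was lost without cSCC replicate 21 (-0.89, adjusted p = 0.0571). The other cytoplasmic genes tested, among them those of the destruction complex, were not called.

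Of the nuclear genes, Tle4, a Groucho family co-repressor of Tcf factors, was higher in AK than in NS, at 69.1 ± 11.5 CPM (SD, n = 8) against 41.6 ± 13.6 CPM (SD, n = 8), with a log2 fold change of 0.72 (adjusted p = 0.0388). In cSCC it fell below AK (-1.53, adjusted p = 0.0335), and those groups did not overlap. Tcf7l2, a Tcf factor, was lower for cSCC vs. AK (-0.84, adjusted p = 0.0294), and Tle3, a relative of Tle4, for cSCC vs. NS (-1.05, adjusted p = 0.046). With 1 sample left out, the call of Tle4 was lost in 8 of 16 fits for AK vs. NS and in 5 of 12 for cSCC vs. AK, where it was -1.31 (adjusted p = 0.072) without cSCC replicate 21. Tle3 was lost in 9 of 12, with log2 fold changes of -1.44 to -0.88.

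Among the feedback and target genes, Ccnd1 rose in cSCC. It encodes cyclin D1, which drives entry into the cell cycle and is a target of many pathways besides Wnt. Levels were 31.7 to 53.6 CPM in NS, 17.7 to 75.9 CPM in AK and 102, 608, 141 and 107 CPM in cSCC replicates 18 to 21, without overlap. The log2 fold changes were 2.56 ± 0.40 (SE, adjusted p = 0.00167) vs. NS and 2.49 ± 0.45 (SE, adjusted p = 0.00287) vs. AK, and without replicate 19 they were 1.53 and 1.45 and still called. Of the other target genes that passed the filter, Nkd2, Apcdd1, Myc, Cd44 and Tnfrsf19, none was called. For cSCC vs. NS, Apcdd1 was at -1.50 and Tnfrsf19 at -1.80 (adjusted p = 0.138 and 0.0934), Axin2 at -1.15, and Myc and Cd44 at 0.24 and 0.53 (adjusted p = 0.627 and 0.463). Nkd2 was at -0.40 there (adjusted p = 0.654). For AK vs. NS, Nkd2 was at -1.15 and Cd44 at 0.56 (adjusted p = 0.0603 and 0.0908). Apcdd1, Tnfrsf19 and Myc were at -0.35, -0.21 and 0.25 in that comparison (adjusted p = 0.594, 0.754 and 0.483).

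**Figure D4:**
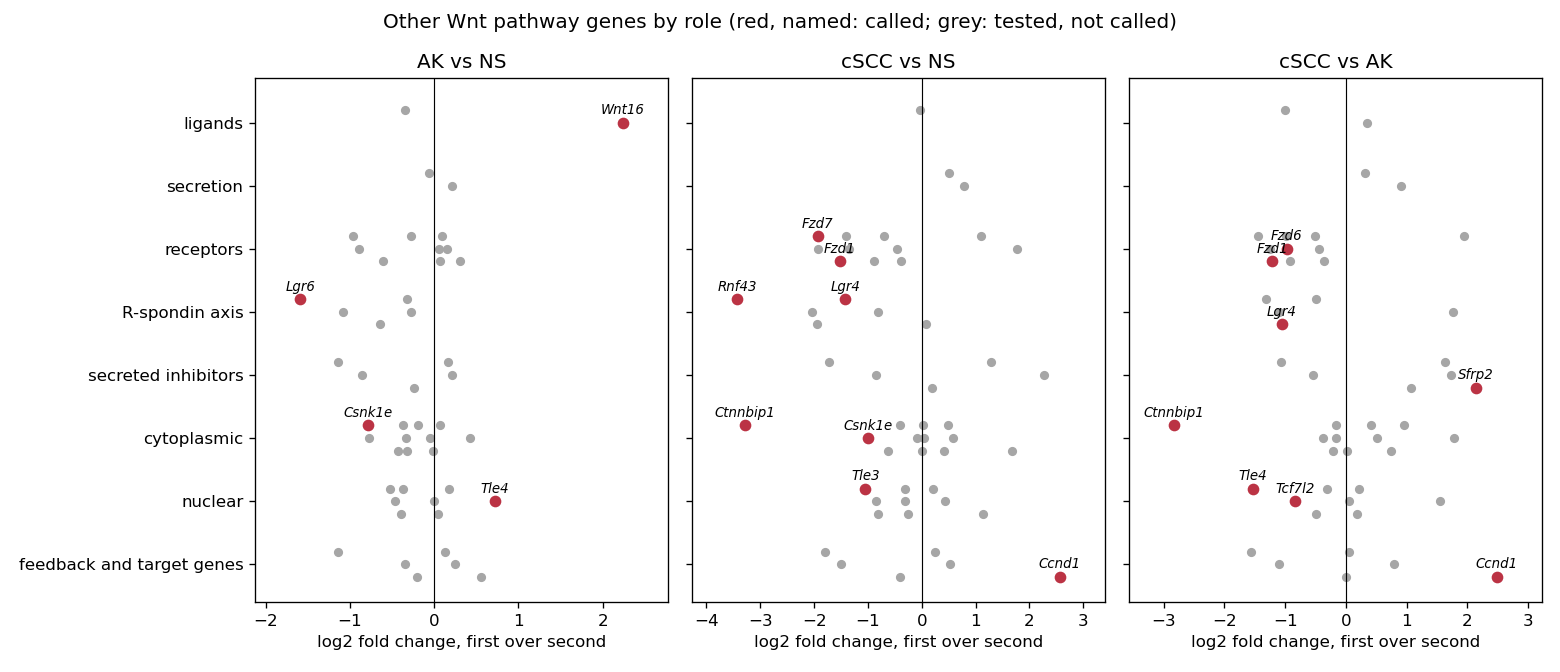
log2 fold change (horizontal axes) of the further Wnt genes that were tested, by role (rows), in the 3 comparisons (panels), with called genes in red and named. The points farthest from 0 among called genes are Rnf43 at -3.43 and Ctnnbip1 at -3.28 on the lower side and Ccnd1 at 2.56 on the higher side, all for cSCC vs. NS. Rnf43 had 0, 0, 0 and 5 counts in cSCC and passed the filter on low counts through NS.

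The genes most like the called members in pattern were sought among 11464 genes tested in every comparison, by the mean absolute difference of log2(CPM + 1), each gene centred on its mean over the 20 samples. For Wnt7b the closest were 4930438A08Rik, at a difference of 0.438, and Mast3, at 0.486, against a median of 1.12 over all candidates. For Sfrp1 they were Aggf1, at 0.255, and Gng12, at 0.298, against a median of 0.723. These genes were chosen for their likeness, so it is a description with no test.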

How the data were processed

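The RNA-seq series comprised 20 tissues in the groups NS (8), AK (8) and cSCC (4), assigned from the sample labels. The authors deposited raw counts per gene symbol, without normalization, in 1 table. The submitters' processing notes name Trimmomatic 0.36, HISAT2 2.0.5 and featureCounts 1.5.2 with builds mm9 and hg19, while the methods of the study name GRCm38 and StringTie, so build and counting are uncertain. The labels also give a HiSeq instrument and daily irradiation, and the study's methods a NextSeq instrument and fewer days a week. The strand setting of counting is not given in the sources used here.

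CPM with TMM factors over the 20 samples, filterByExpr and the quasi-likelihood test were computed with edgeR 4.0.16 in R 4.3.3, on the samples of the 2 groups compared and without covariates. This replaces the study's unadjusted two-sample test per gene, which is kept as an alternative. The SE of a log2 fold change was derived from its size and the F statistic (size over root F). Means and SDs are of CPM. An exact permutation test planned for genes whose groups do not overlap is not given, since complete separation fixes its p. Lengths are merged exons of GENCODE M21 (GRCm38), matched by symbol. The 8 AK stand for 4 mice. Over 62 pairs of samples within groups none was a repeat of another library (smallest chi-square per degree of freedom 11.3).

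Alternatives were DESeq2 1.42.0, limma 3.58.1 (voom, quality weights per sample), upper quartile factors, scaling by library size alone, the unadjusted two-sample test, no filter, at least 10 counts in every sample, no fold limit, all 20 samples in 1 fit, haemoglobin genes left out, leaving out each sample, and leaving out cSCC replicates 20 and 21 together. Scripts were tested on simulated data. The 10 genes, the lists and the alternatives were chosen with earlier results of these data known. Genes named were the 10 members, up to 15 called genes of the further Wnt list per comparison by adjusted p, and the 2 genes closest in pattern to each called member. Further target genes that were not called, Krt27, Krt31 and Krt35, the secretion genes and overlapping genes were named after their values were seen. Promoter windows are from RefSeq (GRCm38.p6), and 5 of the 10 genes had one. Python 3.11.15 with pandas 2.3.3, numpy 2.4.6, scipy 1.17.1 and matplotlib 3.10.9 was used.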

Additional observations from a re-analysis of the deposited data

Results flagged for a closer look

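For the 10 genes, each group was examined for a sample whose gap to the nearest other, as a share of the group's range, exceeded Dixon's 95% limit. Of 30 groups 6 met this, and chance alone gives about 1 in 20 groups. In cSCC, replicate 18 was high for Wnt3 at 48.6 CPM (gap 0.887 of the range), replicate 21 was low for Wnt4 at 8.6 CPM (0.887), replicate 20 was low for Wnt5a at 19.3 CPM (0.868) and replicate 20 was high for Axin2 at 10.2 CPM (0.871). For Wnt10a, NS replicate 6 was high at 27.0 CPM (0.616) and AK replicate 16 was low at 4.79 CPM (0.631, from 8 counts). The 3 cSCC samples concerned, replicates 18, 20 and 21, are the libraries with haemoglobin, heart or lung genes named in the report, and the part of that RNA in these values was not tested.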

How the results depend on the processing

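No paired analysis was possible because the replicate numbers of NS, AK and cSCC are not shared between groups and no label names the mouse behind a tissue. Of 637 values of the 9 tested genes under alternatives, 595 kept their side of the threshold, 16 passed it, 26 lost it and 0 calls turned direction, while 17 uncalled values changed sign. Lef1 was not among them. With 1 sample left out, the members called numbered 0 to 1 for AK vs. NS (main 0), 1 to 3 for cSCC vs. NS (main 2) and 0 to 2 for cSCC vs. AK (main 1), and genes of the further list 1 to 7 (main 4), 5 to 12 (main 8) and 5 to 14 (main 8). Among all genes these ranges were 164 to 920 (main 542), 1695 to 3181 (main 2340) and 1787 to 3994 (main 2935). The lowest counts among all genes came without NS replicate 4 for AK vs. NS and without cSCC replicate 21 for cSCC vs. AK.

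For AK vs. NS the members called were 2 with DESeq2, 1 with library size alone, 1 with limma voom and 2 with the unadjusted two-sample test. All genes numbered 1049 with DESeq2, 1043 with limma voom, 1853 with the unadjusted test and 9 with all 20 samples in 1 fit, and the further list 1 without a filter, 2 at 10 counts in every sample and 0 in 1 fit. For cSCC vs. NS the members called were 1 with upper quartile factors, 0 with limma voom, 1 without a filter and 1 at 10 counts in every sample, where Wnt7b was not tested. The further list gave 4 with limma voom, 18 with the unadjusted test, 13 in 1 fit and 5 without cSCC replicates 20 and 21, and all genes 1308 with limma voom, 1526 at 10 counts and 1558 without those replicates. For cSCC vs. AK the members called were 0 with upper quartile factors, 0 with limma voom, 2 with the unadjusted test and 0 without cSCC replicates 20 and 21. The further list gave 5 at 10 counts and 5 without those replicates, and all genes 1270 with limma voom, 1731 at 10 counts and 1584 without those replicates. The cause of these changes was not tested beyond the fewer genes or samples that some alternatives hold.

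Scaling by library size alone moved the median log2 fold change of all genes from 0.15 to -0.17 for cSCC vs. NS and from 0.17 to -0.09 for cSCC vs. AK. The calls were then 625 higher and 1332 lower instead of 1414 and 926, 1021 and 1356 instead of 1931 and 1004, and 176 and 481 for AK vs. NS instead of 264 and 278 (190 and 391 with upper quartile factors). Relative to these shifts the log2 fold changes of Wnt7b and Sfrp1 stayed below 0 under each scaling in the comparisons where they were called, while Sfrp1 lost both calls with upper quartile factors (-1.23, adjusted p = 0.0521, and -1.08, adjusted p = 0.0545). Levels under 3 counts could not be detected, which bears on most Lef1 values, on Wnt7b in AK replicates 12 and 16 and cSCC replicate 18, and on Axin2 in cSCC replicate 18.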
